A study of Mus musculus with 13 samples.

Results

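Eosinophils of the small intestinal lamina propria of wild-type (WT) mice were sorted by surface Clec4a4, and WT Clec4a4+ eosinophils were set against WT Clec4a4- eosinophils, with 1 microarray on each side. These are 2 of the 13 arrays of the study. The genes compared were the 12660 of 24111 measured genes (52.5%) for which the brighter of these 2 arrays gave at least 4.79, the median over all genes and arrays of their table. The remaining array of that table held Clec4a4- eosinophils of Ahr knockout (KO) mice, and a separate table held 5 mCherry+ and 5 mCherry- eosinophil samples of mice with mCherry knocked in at Clec4a4, in which mCherry marks Clec4a4 expression. Age, sex and strain of the mice, the number of mice behind an array, the allele of the Ahr KO and whether the knock-in keeps Clec4a4 intact were not stated in the sources used here.

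Eosinophils of the gut wall are resident granulocytes that depend on IL-5 and are recruited by eotaxin through Ccr3. Clec4a4, also called DCIR2, is a C-type lectin receptor with an inhibitory motif in its cytoplasmic tail, best known from a subset of dendritic cells. The aryl hydrocarbon receptor AHR, the product of Ahr, senses small molecules from diet and microbes, binds DNA together with Arnt and induces Ahrr, Tiparp and enzymes of xenobiotic metabolism.

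All values are log2 intensities. They are comparable within a gene and within a table, and no gene's level is set against another gene's level, except the rank of Tff2 by intensity. A difference is WT Clec4a4+ minus WT Clec4a4-, so a difference of 1 is 2-fold. With 1 array a side the surface sort has no replicate and no test, and differences are called higher or lower as measured. Where the dimmer value lay under 4.79, a fold is given as a bound computed from 4.79. The reporter sort served as a replicated measurement of the same genes, tested with limma and called at an adjusted p under 0.05 over 20527 genes, first without and then with the array number as a block. Fits with 1 array left out had no block, so a call lost there is lost in the fit that ignores the array number. Over the 11323 genes compared in both tables, the share called was 0.265% higher in mCherry+ and 0.371% lower without the block, and 1.81% and 1.23% with it. Of these genes 8.64% were higher in mCherry+ in all 5 pairs of same-numbered arrays, and 6.69% were lower in all 5. The labels call the reporter arrays biological replicates without naming mice, so these p-values measure the spread between the arrays, which may be technical in part.

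The 3 surface-sort arrays had medians of 4.73 to 4.75, and the 10 reporter arrays had medians of 5.18 to 5.27. In the reporter sort both arrays of number 1 stood apart. Xist, transcribed from the inactive X chromosome of females, was at 9.90 in mCherry+ array 1 and 10.36 in mCherry- array 1, against 3.56 to 3.93 on the other 8 arrays. The mean over 37 enterocyte markers was 7.34 in mCherry+ array 1 and 7.12 in mCherry- array 1, and 9.31 to 10.23 on the other 8. Ahr was at 11.12 on the array labelled Ahr KO, as high as on the WT arrays (11.11 and 11.08), so its probe set did not show the deletion. The sources used here do not say where the probe set lies against the deleted part. On the surface-sort arrays Xist was at 10.78 in WT Clec4a4+, 10.91 in WT Clec4a4- and 10.69 on the array labelled Ahr KO Clec4a4-.

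The 2 WT arrays were alike over most genes. Pearson's r across the 24111 genes was 0.983, a description across genes that are not independent, and the SD of the differences over the 12660 genes was 0.43. At 2-fold or more, 155 genes were higher in WT Clec4a4+ (1.22% of the genes compared) and 241 were lower (1.9%). Of all 24111 measured genes these were 0.643% and 1.00%. Counts for gene lists below are likewise out of measured members, those under the filter included. At 4-fold or more there were 23 higher and 32 lower, and at 8-fold or more 11 higher and 9 lower. For 50 of the 155 and 50 of the 241 the dimmer value was under 4.79. Of the 155 genes, 50 were predicted genes, small RNAs, receptor segments or other entries that the naming rule leaves out, against 20 of the 241. The genes nearest the 2-fold limit were Gtf2ird1 (1.003, inside) and Acp5 (0.998, outside) on the higher side and Plxnb2 (-1.002, inside) and Itga2 (-0.999, outside) on the lower side.

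**Figure D1:**
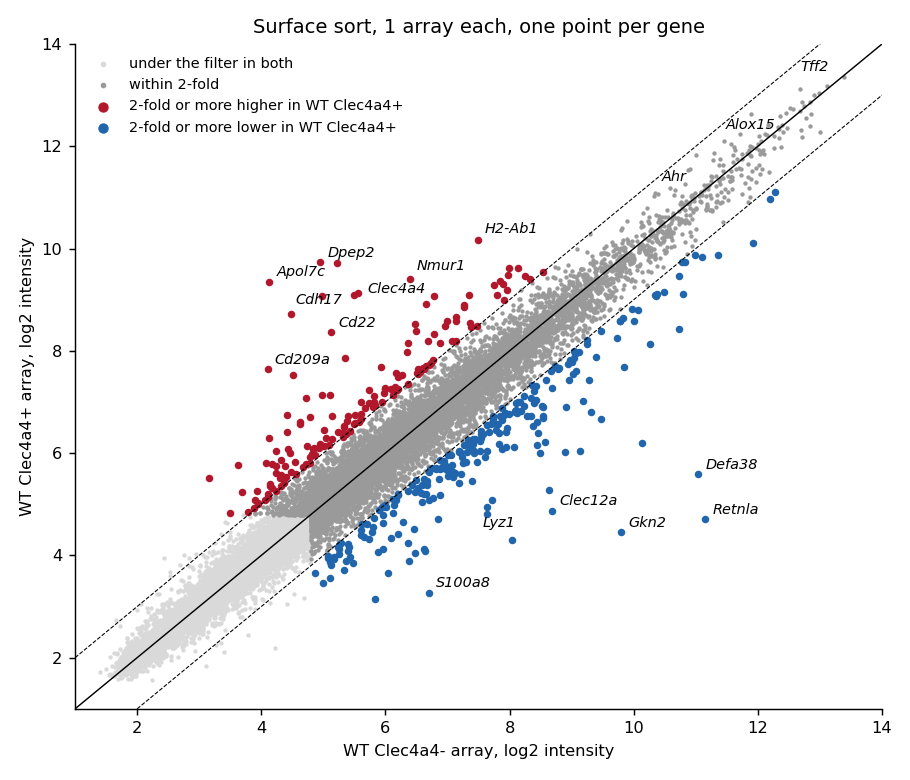
Log2 intensity of each gene on the WT Clec4a4+ array (vertical axis) against the WT Clec4a4- array (horizontal axis), with the line of equality and dashed lines at 2-fold. Most genes lie between the dashed lines, with 155 coloured points above them and 241 below, and Retnla, Defa38 and Gkn2 lie farthest to the lower right.

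The 5 markers named for the sort were Clec4a4, Dpep2, Nmur1, Retnla and Clec12a. They were chosen with earlier results of these data known, so their differences do not check the label of the sort. Only Clec4a4, the gene of the sort, bears on that label. Clec4a4 was at 9.14 in WT Clec4a4+ and 5.56 in WT Clec4a4-, an 11.9-fold difference, and at 3.93 on the array labelled Ahr KO Clec4a4-. The gene used for the sort was therefore high on the Clec4a4+ array alone of these 3 arrays. Dpep2, a membrane dipeptidase that acts on leukotriene D4, was at 9.74 against 4.95, 27.6-fold higher. Dpep2 had 2 probe sets, and the difference was 4.78 on the brighter and 2.48 on the dimmer. Nmur1, the receptor of the neuropeptide neuromedin U, was at 9.40 against 6.39, 8.06-fold higher.

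The other markers were lower. Retnla, the secreted resistin-like alpha induced by type 2 cytokines, was at 4.71 in WT Clec4a4+ and 11.15 in WT Clec4a4-, at least 82.0-fold lower, the largest difference of the 12660 genes in either direction. Clec12a, an inhibitory lectin that recognises uric acid crystals, was at 4.88 against 8.69, 14.1-fold lower. In these bulk RNA samples fewer cells that express a gene and less of its RNA per cell cannot be told apart. On the array labelled Ahr KO Clec4a4- Retnla was at 8.30 and Clec12a at 8.12, and Dpep2 and Nmur1 were at 4.64 and 6.11, near their WT Clec4a4- values.

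In the reporter sort Clec4a4 was at 9.86, 9.50, 9.43, 8.29 and 8.83 in mCherry+ arrays 1 to 5, against 7.93, 7.70, 7.81, 6.42 and 7.77 in mCherry- arrays 1 to 5. The groups did not overlap, and the mCherry- values were lowest in array 4. Its difference of 1.66 (SE 0.35) passed with the block (adjusted p = 0.00184, limma) and not without it (adjusted p = 0.0803, limma). Dpep2 was at 9.99, 10.25, 10.30, 9.12 and 10.29 in mCherry+, against 8.10, 7.48, 7.26, 6.02 and 6.92 in mCherry-. It rose by 2.83 (SE 0.36, adjusted p = 0.00719, limma), and its call held with each of the 10 arrays left out in turn.

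Clec12a was at 5.14, 4.94, 4.45, 4.43 and 4.51 in mCherry+, against 8.34, 6.83, 6.63, 5.39 and 6.87 in mCherry-. The groups did not overlap, and the difference of -2.12 (SE 0.42) passed with the block alone (adjusted p = 0.0651 without it and 0.00767 with it, limma). Nmur1 was at 7.50, 7.86, 8.54, 6.46 and 6.38 in mCherry+, against 6.64, 6.12, 6.09, 6.05 and 5.58 in mCherry-. It was higher in 5 of 5 pairs, its groups overlapped, and the difference of 1.25 did not pass in either fit (adjusted p = 0.362 and, with the block, 0.0761, limma). Retnla was at 3.90, 3.43, 3.49, 2.69 and 3.26 in mCherry+, against 6.22, 3.80, 3.77, 3.26 and 3.92 in mCherry-. Only mCherry- array 1 stood clearly above the rest, and the difference of -0.84 did not pass (adjusted p = 0.792 and, with the block, 0.233, limma).

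Genes that mark eosinophils were at much the same level on both arrays. Of 21 eosinophil identity genes, 21 passed the filter, 0 were 2-fold higher and 1 was 2-fold lower, with a median difference of -0.20 against 0.00 over all 24111 genes. Siglecf, a sialic acid receptor that marks mouse eosinophils, was at 8.20 in WT Clec4a4+ and 8.57 in WT Clec4a4-. Ccr3, the eotaxin receptor, was at 9.61 against 9.81, and Il5ra, the IL-5 receptor, at 7.82 against 8.08. The lipoxygenase Alox15 was at 12.19 against 12.70. The exception was Il1rl1, the receptor of IL-33, at 4.07 against 5.87, which differed by -0.25 in the reporter sort (adjusted p = 0.965, limma).

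The granule protein list had 9 measured members, among them Mbp, the symbol of myelin basic protein in mice, which is no granule component. Prg2, the eosinophil major basic protein, was at 8.58 in WT Clec4a4+ and 9.78 in WT Clec4a4-, 2.30-fold lower, and was the member of this list past 2-fold. On the reporter arrays Prg2 differed by -1.02 and passed with the block alone (adjusted p = 0.681 without it and 0.0416 with it, limma). Epx, the eosinophil peroxidase, was at 4.79 against 4.88, close to the filter value of 4.79 on both arrays. Ear1, an eosinophil ribonuclease with near-identical relatives, was at 5.11 against 5.79 and was called lower in the reporter sort (-1.23, adjusted p = 0.0485, limma). That call was lost in 8 of the 10 fits without 1 array, all but those without mCherry- array 3 or 4, with an adjusted p of up to 0.143.

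**Figure D2:**
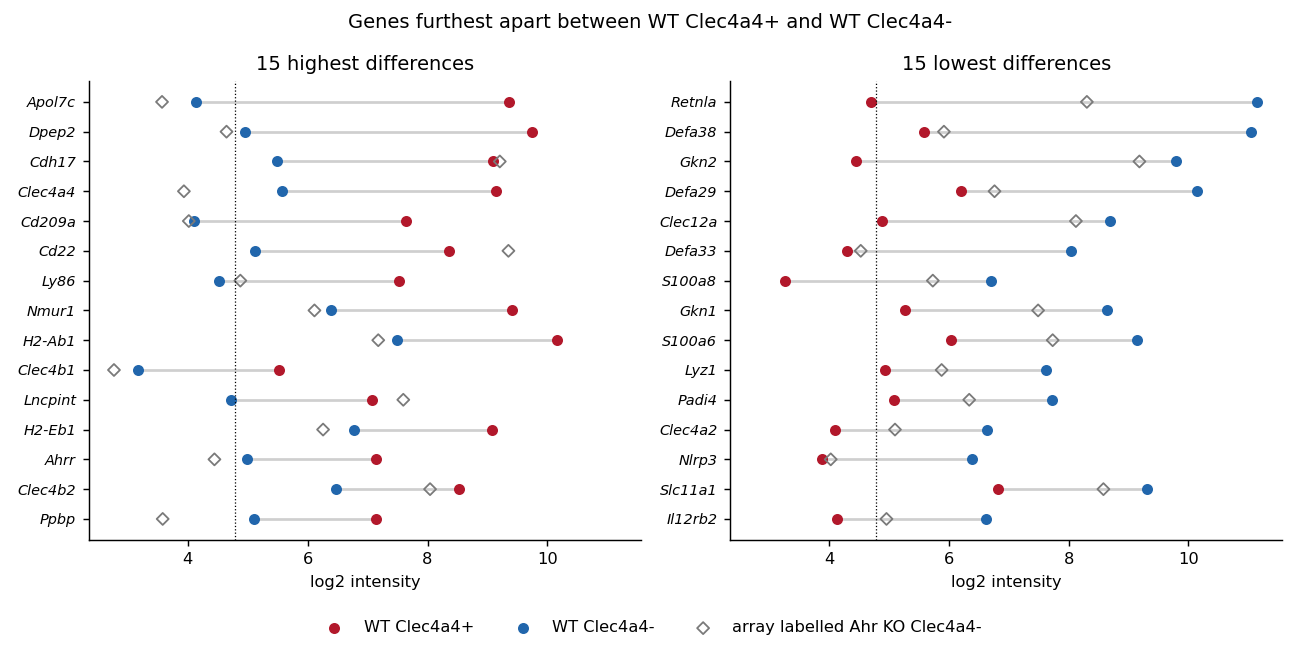
Log2 intensity of the 15 named genes at each end of the differences on the WT Clec4a4+ (red), WT Clec4a4- (blue) and Ahr KO Clec4a4- (open diamonds) arrays, with a dotted line at 4.79. Diamonds of Cdh17, Cd22 and Lncpint lie near or beyond the red points, and those of Defa38, Defa29 and Nlrp3 near them on the lower side.

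C-type lectin receptors differed in both directions. Of 28 measured members of the list, 4 were 2-fold or more higher and 7 lower, with a median of -0.06. Besides Clec4a4 the higher ones were Cd209a, a DC-SIGN relative, at 7.64 against 4.10 (at least 7.22-fold), Clec4b2 at 8.52 against 6.47 (4.15-fold) and Clec4b1 at 5.52 against 3.16 (at least 1.65-fold). Clec4a4, Clec4b1, Clec4b2, Clec4a2, Clec4d, Clec4n and Clec4e belong to 1 gene family, so members of that family stood on both sides.

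The lower members of the list have several roles. Besides Clec12a they were Clec4a2 (4.09 in WT Clec4a4+ and 6.64 in WT Clec4a4-), an inhibitory receptor, Clec7a (7.03 and 9.19), the beta-glucan receptor Dectin-1, and Clec4e (8.12 and 10.26), the glycolipid receptor Mincle. Olr1, a scavenger receptor of oxidised lipoprotein, was at 9.88 and 11.35, Cd69, an early activation marker, at 9.11 and 10.38, and Clec4d, the partner of Mincle, at 5.70 and 6.94.

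Among the reporter samples Clec4e was at 7.86, 7.24, 7.40, 6.93 and 7.74 in mCherry+, against 10.50, 10.42, 10.04, 10.58 and 10.77 in mCherry-. It fell by 3.03 (SE 0.20, adjusted p = 8.32e-05, limma), with a gap of over 2 between the groups, and the call held with each array left out. Clec4a2 was at 4.84, 4.61, 3.76, 3.81 and 4.45 in mCherry+, against 8.13, 7.18, 6.40, 5.80 and 6.99 in mCherry-, and fell by 2.61 (adjusted p = 0.0177, limma). Clec7a was at 5.38, 4.76, 4.56, 5.47 and 5.27 in mCherry+, against 7.96, 6.48, 6.69, 8.05 and 8.19 in mCherry-, and fell by 2.38 (adjusted p = 0.0183, limma). None of these groups overlapped. Clec4a2 lost its call without mCherry+ array 3 or 5 or mCherry- array 2 or 5 (adjusted p up to 0.0617, limma), and Clec7a without mCherry+ array 2, 3 or 5 or mCherry- array 5 (up to 0.0644). With the block and all arrays Clec4a2 and Clec7a passed too (adjusted p = 0.000488 and 0.000775, limma). Clec4b2 rose by 1.52 (adjusted p = 0.0285, limma), a call that held only without mCherry+ array 4, mCherry- array 2 or mCherry- array 4 (adjusted p up to 0.095 otherwise). Cd209a stood at 4.58 to 4.78 in mCherry+ and 4.39 to 5.11 in mCherry- and did not pass in either fit (0.09, adjusted p = 0.975 and, with the block, 0.855, limma).

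Other surface receptors were among the genes highest in WT Clec4a4+. Cd22, a siglec that dampens B cell receptor signals, was at 8.36 against 5.12 (9.43-fold) and at 9.35 on the array labelled Ahr KO Clec4a4-. Ly86, the partner of the Toll-like receptor relative Cd180, was at 7.53 against 4.52 (at least 6.66-fold), and Fcrls, an Fc receptor-like molecule, at 6.41 against 4.41 (at least 3.07-fold). F2rl3, a thrombin receptor, was at 7.69 against 5.93 (3.38-fold), and Gpr171, a receptor of a neuropeptide, at 6.98 against 5.74.

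In the reporter sort Cd22 was at 8.20, 8.70, 9.23, 8.47 and 9.09 in mCherry+, against 5.91, 5.81, 6.89, 6.16 and 6.01 in mCherry-. The lowest mCherry+ value was above the highest mCherry- value, and Cd22 rose by 2.58 (SE 0.25, adjusted p = 0.00125, limma). Fcrls ranged from 6.66 to 8.36 in mCherry+ and from 5.07 to 5.88 in mCherry- and rose by 2.36 (adjusted p = 0.00719, limma). Both calls held with each array left out. Ly86 rose by 2.09 (adjusted p = 0.0285, limma) and F2rl3 by 1.59 (adjusted p = 0.0259, limma). F2rl3 lost its call without mCherry+ array 3 or 5 or mCherry- array 2 or 5 (adjusted p up to 0.0809), and Ly86 kept its call only without mCherry+ array 4, mCherry- array 1 or mCherry- array 4 (adjusted p up to 0.0851 otherwise). Of 36 siglecs and inhibitory receptors, 3 were 2-fold or more higher in WT Clec4a4+ and 1 lower, with a median of 0.03. Of 16 Fc receptors 2 were higher and 0 lower, Fcrls and the activating receptor Fcgr4 (8.34 against 6.78), with a median of 0.06.

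Apol7c, an apolipoprotein L family member, had the highest difference of all genes, at 9.35 in WT Clec4a4+ and 4.13 in WT Clec4a4- (at least 23.6-fold). On the reporter arrays it was at 3.77, 3.53, 4.15, 4.82 and 4.19 in mCherry+, against 4.33, 4.50, 3.71, 4.44 and 5.74 in mCherry-, so it was dim on all 10 arrays. It differed there by -0.45 and was positive in 2 of 5 pairs (adjusted p = 0.892 and, with the block, 0.614, limma). Cdh17, an intestinal epithelial cadherin, was at 9.09 against 5.49, and at 9.21 on the array labelled Ahr KO Clec4a4-. It was the member past 2-fold among 37 enterocyte markers, whose median difference was -0.02. Among the reporter samples Cdh17 was at 9.41, 10.08, 10.24, 10.57 and 10.35 in mCherry+, against 7.71, 9.78, 9.99, 10.50 and 10.13 in mCherry-, lowest in both arrays of number 1, and did not pass in either fit (0.50, adjusted p = 0.934 and, with the block, 0.414, limma).

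The MHC class II presentation genes were higher. Of 14 measured members, 5 were 2-fold or more higher in WT Clec4a4+ and 0 lower, with a median of 0.36, and 12 of 14 were higher by sign. H2-Ab1 was at 10.16 against 7.49 (6.37-fold), H2-Eb1 at 9.07 against 6.78 (4.90-fold) and H2-Aa at 7.23 against 5.73, which encode chains of the surface molecules. H2-DMb2 was at 8.38 against 6.49 and H2-DMa at 7.49 against 6.20, which encode chains of the peptide loading factor. Ciita, the regulator of these genes, was at 5.61 against 5.29. On the array labelled Ahr KO Clec4a4- H2-Ab1 was at 7.18 and H2-Eb1 at 6.26, under both WT values.

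The promoters of H2-Aa and H2-Eb1 are shown because many members of this list share a known element, the Y box. Its core GATTGG was searched on both strands. Read on the other strand the core overlaps the CCAAT box, found in many promoters. Sequences are RefSeq's on GRCm38.p6, 250 bases before to 50 after the gene's start, read 5′ to 3′ on the gene's strand, with the core in capitals.
H2-Aa, chr17:34287774-34288073, minus strand: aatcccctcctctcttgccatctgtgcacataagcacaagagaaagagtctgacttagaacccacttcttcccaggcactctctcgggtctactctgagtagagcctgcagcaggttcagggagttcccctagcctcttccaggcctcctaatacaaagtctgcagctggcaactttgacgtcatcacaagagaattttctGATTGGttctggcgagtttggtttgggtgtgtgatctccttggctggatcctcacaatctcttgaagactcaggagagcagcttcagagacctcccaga
H2-Eb1, chr17:34305617-34305916, plus strand: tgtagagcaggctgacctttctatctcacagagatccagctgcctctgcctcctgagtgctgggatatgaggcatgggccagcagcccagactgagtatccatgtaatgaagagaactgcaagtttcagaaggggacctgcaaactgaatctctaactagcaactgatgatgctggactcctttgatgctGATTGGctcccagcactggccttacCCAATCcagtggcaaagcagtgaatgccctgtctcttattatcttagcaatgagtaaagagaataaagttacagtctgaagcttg
The core lay 49 bases before the start of H2-Aa, and H2-Eb1 held 2 copies, on opposite strands, 60 and 35 bases before its start. Of the 12 list members with a promoter in the table, 10 held the core on either strand (83.3%), against 18.2% of 27025 genes. The 10 included H2-Oa and Rfx5, which were lower in WT Clec4a4+ (differences of -0.36 and -0.46). Among genes 2-fold or more higher in WT Clec4a4+ the share was 24.7% of 97, and among those lower 22.3% of 175. A match describes letters and not binding.

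The reporter sort gave no call for MHC class II genes. H2-Ab1 was at 8.70, 7.36, 8.03, 9.83 and 8.74 in mCherry+, against 8.72, 7.83, 8.06, 9.56 and 9.12 in mCherry-, a difference of -0.12 (SE 0.45, adjusted p = 0.993 and, with the block, 0.815, limma). The groups overlapped over nearly their whole range, and arrays of number 4 were highest in both. H2-Eb1 differed by 0.06. Of the 13 members measured there 0 were called in either fit, at a median of -0.03.

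Markers of dendritic cells and T cells were measured beside these genes. Of 17 dendritic cell markers, 2 were 2-fold or more higher in WT Clec4a4+ (Cd209a, and Itgae at 6.13 against 5.02) and 0 lower, with a median difference of 0.26 and 13 of 17 higher by sign. The list's mean level was 5.73 in WT Clec4a4+ and 5.33 in WT Clec4a4-, and its median level 4.77 and 4.81. On both arrays 6 of the 17 were under 4.79, among them Zbtb46 at 4.39 against 4.16 and Flt3 at 4.77 against 4.36. The other 11 passed the filter, among them Xcr1 at 5.17 against 4.84 and Batf3. In the reporter sort Batf3 was at 6.07 to 6.77 in mCherry+ and 6.18 to 6.54 in mCherry-. Of 28 T cell, NK cell and ILC markers, 3 were higher (Cd7 at 8.89 against 7.27, Cd3g at 6.72 against 5.40 and Cd8b1 at 6.52 against 5.34) and 0 lower. Of the 28, 22 were higher by sign, with a median difference of 0.19, and the list's mean level was 5.38 in WT Clec4a4+ and 5.07 in WT Clec4a4-. Of 21 B cell and plasma cell markers, 14 of which passed the filter, 0 were 2-fold apart. The part of such cells in the differences of MHC class II genes, Cd209a and Cd22 was not tested.

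**Figure D3:**
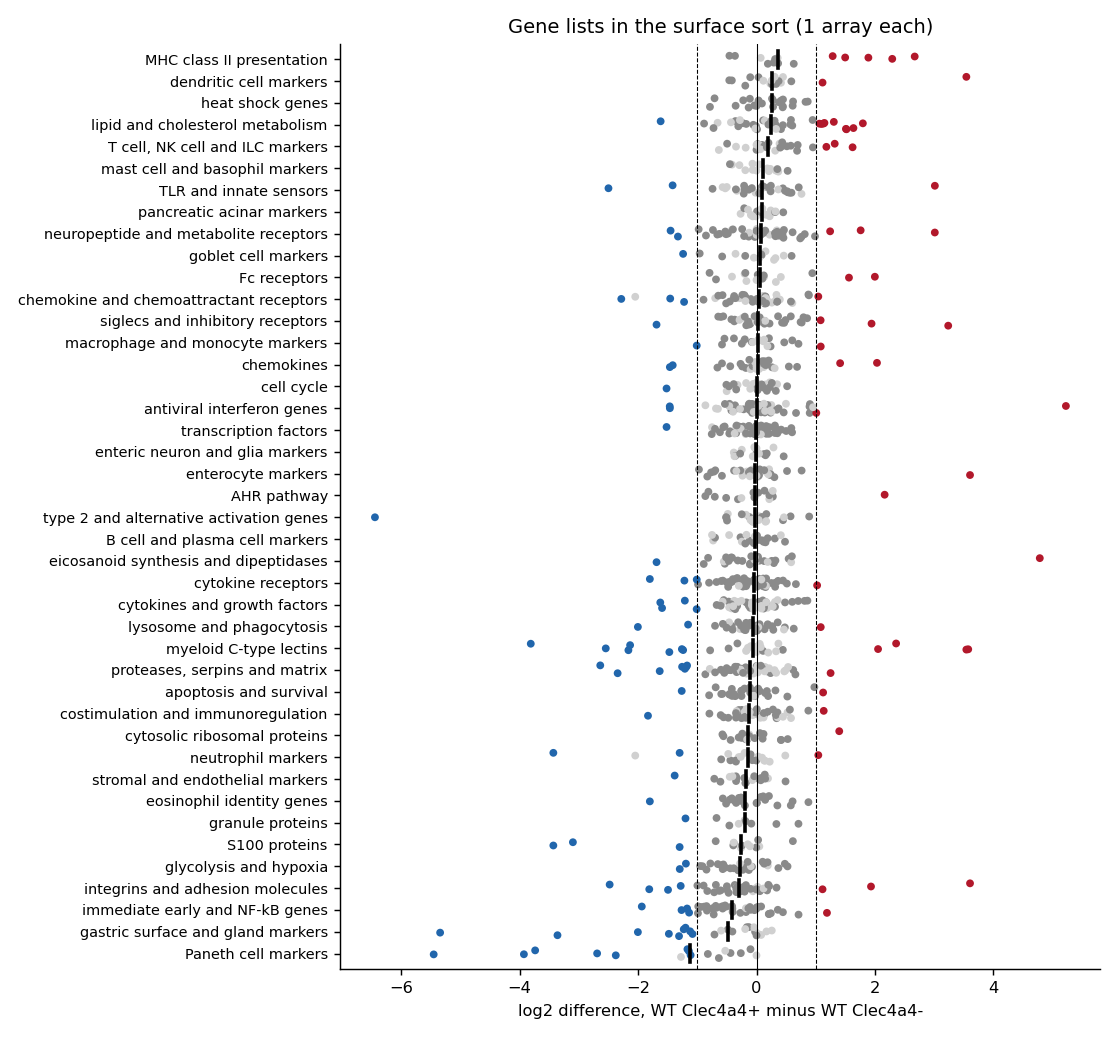
Log2 difference (WT Clec4a4+ minus WT Clec4a4-) of the members of 42 gene lists, with black bars at the median of all measured members, dashed lines at 2-fold, red and blue points past it and light points under the filter. Paneth cell markers (median -1.13), gastric genes (-0.48) and NF-kB genes (-0.41) lie lowest, and MHC class II genes (0.36) highest.

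Enzymes of cholesterol synthesis were higher in WT Clec4a4+. Of 37 measured genes of lipid and cholesterol metabolism, 9 were 2-fold or more higher and 1 lower, with a median of 0.25. The 9 were steps of 1 pathway, among them Hmgcs1 (7.28 against 6.15), Pmvk (8.16 against 6.37), Fdps (7.98 against 6.34), Fdft1 (8.19 against 6.68), Sqle (6.96 against 5.81), Cyp51 (7.12 against 5.81), Msmo1 (8.48 against 6.96) and Dhcr7 (6.93 against 5.83). The lower member was Fabp4, a fatty acid binding protein, at 3.86 against 5.48. On the array labelled Ahr KO Clec4a4- Pmvk was at 7.29, Fdps at 6.92, Msmo1 at 7.60 and Cyp51 at 7.37, above their WT Clec4a4- values, whereas Hmgcs1 was at 6.13.

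The Hmgcs1 promoter is shown since it holds the core of the sterol response element bound by Srebf2, TCACNCCAC, in capitals.
Hmgcs1, chr13:119690101-119690400, plus strand: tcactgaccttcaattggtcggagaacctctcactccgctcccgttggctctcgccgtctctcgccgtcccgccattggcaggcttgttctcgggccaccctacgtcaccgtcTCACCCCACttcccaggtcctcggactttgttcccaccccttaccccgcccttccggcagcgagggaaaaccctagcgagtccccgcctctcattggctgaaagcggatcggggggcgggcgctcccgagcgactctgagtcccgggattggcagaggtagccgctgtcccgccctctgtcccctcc
It lay 137 bases before the gene's start. Of 23 list members with a promoter, 1 held this core on either strand (4.35%), against 1.44% of all 27025 genes.

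In the mCherry sort 6 of these genes rose and 0 fell without the block, and 16 rose and 0 fell with it. Pmvk was at 9.65, 9.91, 10.02, 8.88 and 9.83 in mCherry+, against 8.17, 8.20, 8.19, 7.65 and 8.42 in mCherry-, with no overlap, and rose by 1.54 (SE 0.23, adjusted p = 0.0177, limma). Msmo1 was at 10.58, 10.17, 10.06, 9.75 and 10.67 in mCherry+, against 8.47, 8.79, 8.93, 8.90 and 8.95 in mCherry-, and rose by 1.44 (adjusted p = 0.00912, limma). Others called without the block were Sc5d, Cyp51 and Hmgcs1, which rose by 1.05, 1.19 and 1.07. The calls of Msmo1 and Sc5d held in all 10 fits without 1 array. Pmvk passed with the block too (adjusted p = 0.000751, limma). In the fits without 1 array Pmvk lost its call without mCherry+ array 2, 3 or 5 or mCherry- array 2 (adjusted p up to 0.0635, limma). Cyp51 and Hmgcs1 each lost theirs in 7 of 10 such fits (adjusted p up to 0.08 and 0.0985, limma), both without mCherry+ array 1, 2, 3 or 5 or mCherry- array 2 or 3, Cyp51 also without mCherry- array 1 and Hmgcs1 without mCherry- array 5. Fdps (1.07) and Fdft1 (1.22) passed with the block alone (adjusted p = 0.0521 and 0.0923 without it, 0.0263 and 0.0191 with it, limma).

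AHR pathway genes differed in 1 member. Of 17 measured genes Ahrr, the AHR repressor and a direct target of AHR, was 2-fold or more higher, at 7.14 in WT Clec4a4+, 4.98 in WT Clec4a4- and 4.44 on the array labelled Ahr KO Clec4a4-, and 0 were lower. Ahr itself was at 11.11 in WT Clec4a4+ and 11.08 in WT Clec4a4-. In the reporter sort Ahr differed by 1.00, higher in 5 of 5 pairs, and passed with the block alone (adjusted p = 0.341 without it and 0.00214 with it, limma). The target Tiparp was at 11.52 and 11.57 and at 8.01 on that array, and Nqo1, a quinone reductase, at 6.38 and 7.19 and at 4.25 there. Cyp1b1, a cytochrome P450 induced by AHR, was at 4.92 against 4.70 in the surface sort, while it was among the called genes of the reporter sort (2.81, adjusted p = 0.00105, limma).

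The Ahrr promoter is shown with the core that AHR and Arnt bind, GCGTG, searched on both strands and given in capitals.
Ahrr, chr13:74292282-74292581, minus strand: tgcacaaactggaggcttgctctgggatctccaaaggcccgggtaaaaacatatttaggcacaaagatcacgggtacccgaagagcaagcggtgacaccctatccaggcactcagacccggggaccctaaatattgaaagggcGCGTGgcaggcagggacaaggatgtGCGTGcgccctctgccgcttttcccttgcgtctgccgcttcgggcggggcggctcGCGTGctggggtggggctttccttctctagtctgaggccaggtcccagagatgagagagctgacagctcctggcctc
It held 3 copies between 107 and 27 bases before the start. The core was present in 35.2% of all promoters and in 46.2% of the 13 list members with one, in 36.1% of the genes 2-fold higher and 48.0% of those lower, and a match describes letters alone. On the reporter arrays Ahrr was at 7.35, 7.10, 6.65, 6.62 and 7.49 in mCherry+, against 6.37, 6.58, 6.18, 5.96 and 5.50 in mCherry-. It was higher in 5 of 5 pairs without overlap, and did not pass in either fit (0.92, adjusted p = 0.207 and, with the block, 0.106, limma).

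Several genes known from inflammatory granulocytes were among those lower in WT Clec4a4+, picked from several lists and from the lowest differences. S100a8 and S100a9 encode the subunits of calprotectin, and were at 3.27 and 5.93 in WT Clec4a4+, against 6.70 and 7.23 in WT Clec4a4- (at least 3.75-fold and 2.46-fold lower). S100a6, a calcium-binding protein, was at 6.04 against 9.14. Of 15 S100 genes 3 were 2-fold or more lower and 0 higher, with a median of -0.26. Padi4, which citrullinates histones, was at 5.08 against 7.72. Slpi, a secreted protease inhibitor, was at 6.22 against 8.56, and Acod1, which makes itaconate, at 8.43 against 10.73. Nlrp3, the inflammasome sensor, was at 3.88 against 6.38, and Slc11a1, a metal transporter of phagosomes, at 6.81 against 9.31.

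In the mCherry sort S100a8 was at 4.95, 4.36, 6.25, 5.96 and 5.55 in mCherry+, against 9.96, 10.19, 9.77, 12.26 and 11.24 in mCherry-. It fell by 5.27 (SE 0.50, adjusted p = 0.00105, limma), with every mCherry- value above every mCherry+ value. S100a9 fell by 5.03 (adjusted p = 0.00348), Padi4 by 2.20 (adjusted p = 0.00185) and Acod1 by 2.77 (adjusted p = 0.00719, limma), and all 4 calls held with each array left out. Slpi fell by 2.14 (adjusted p = 0.035, limma), a call that held only in the fit without mCherry+ array 4 (adjusted p up to 0.104 otherwise). With the block and all arrays Slpi passed too (adjusted p = 0.00311, limma). Nlrp3 and Slc11a1 passed with the block alone (adjusted p = 0.154 and 0.142 without it, 0.0354 and 0.00382 with it, limma).

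Of 22 neutrophil markers 2 were 2-fold or more lower in WT Clec4a4+, S100a8 and S100a9, and 1 higher, Cxcr2 (7.70 against 6.66). Of the 22, 15 were lower by sign, with a median difference of -0.15. On both arrays 12 of the 22 were under 4.79, among them Ly6g (3.93 against 3.71), Mpo (4.34 against 4.36), Elane (4.78 against 4.29) and Ngp (4.48 against 4.35). The other 10 passed the filter, Csf3r among them. The mean over the list, S100a8 and S100a9 included, was 5.20 in WT Clec4a4+ and 5.55 in WT Clec4a4-. Over its 20 members on the reporter arrays the mean was 5.60 to 5.89 in mCherry+ and 6.19 to 6.86 in mCherry-, without overlap. That mean again includes S100a8 and S100a9, which differed there by -5.27 and -5.03, and was not computed without them. Of the 20, 0 were called higher and 2 lower in either fit, at a median difference of -0.11. Csf3r was at 6.25 to 7.23 in mCherry+ and 6.91 to 9.65 in mCherry-, and Cxcr2 at 6.84 to 8.28 and 6.36 to 8.25. The part of neutrophils in the S100a8 and S100a9 differences was not tested.

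Chemoattractant receptors and cytokines differed in a few members. Of 51 chemokine and chemoattractant receptors 3 were 2-fold or more lower and 1 higher, with a median of 0.03. C3ar1 and C5ar1, receptors of complement fragments, were at 6.16 and 3.97 against 8.44 and 5.43, and C5ar2 was at 5.25 against 6.47. Of 54 cytokines and growth factors 4 were lower and 0 higher, with a median of -0.05: Il6 (4.66 against 6.28), Osm (6.05 against 7.64), Il23a (4.40 against 5.61) and Tnfsf14 (5.11 against 6.12). Among the reporter samples C5ar1 fell by 3.69 (adjusted p = 1.37e-05) and Osm by 3.18 (adjusted p = 9.06e-05, limma), and both calls held with each array left out. Il6 fell by 2.44 (adjusted p = 0.0434, limma) and kept its call only without mCherry+ array 1, mCherry- array 1 or mCherry- array 4 (adjusted p up to 0.134 otherwise). C3ar1 passed with the block alone (adjusted p = 0.269 without it and 0.0433 with it, limma), and C5ar2 in neither fit (-0.32, adjusted p = 0.686, limma).

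Among 42 immediate early and NF-kB genes 1 was 2-fold or more higher and 4 were lower, with a median of -0.41 and 32 lower by sign. Nr4a2, a nuclear receptor, was at 7.17 against 5.98. Fosl1, an AP-1 subunit, was at 5.45 against 7.39, Nfkbie, an NF-kB inhibitor, at 6.82 against 8.08, Myc at 6.02 against 7.20 and Rela, an NF-kB subunit, at 7.98 against 9.11. On the reporter arrays the list had 2 falls without the block, Nfkbia (-1.51) and Nfkb2 (-1.20), and 2 rises and 13 falls with it. Nfkbia lost its call without mCherry+ array 5 (adjusted p = 0.0554, limma), and Nfkb2 without mCherry+ array 2 or 3 or mCherry- array 5 (up to 0.0636).

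Ptgs2, the inducible cyclooxygenase, was at 9.11 in WT Clec4a4+ and 10.80 in WT Clec4a4-, and at 8.27 on the array labelled Ahr KO Clec4a4-. It was the lower member past 2-fold among 30 eicosanoid and dipeptidase genes, as Dpep2 was the higher one. Of 41 integrins and adhesion molecules 3 were higher and 4 lower, with a median of -0.29. The lower ones included Itgb7 (6.73 against 8.54), the partner of alpha 4 and alpha E integrins in gut homing, Itgal (8.24 against 9.74), the LFA-1 chain, and Icam1 (8.79 against 10.07), its ligand. Icam1 fell by 1.33 in the reporter sort (adjusted p = 0.00719, limma), a call that held with each array left out. Ptgs2 fell by 1.29 there (adjusted p = 0.0337, limma) and kept its call only without mCherry+ array 1 or 4 or mCherry- array 4 (adjusted p up to 0.103 otherwise).

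Secreted factors and matrix regulators differed in both directions. Of 30 chemokines 2 were 2-fold or more higher and 2 lower, with a median of 0.02. The platelet chemokine Ppbp was at 7.14 in WT Clec4a4+ and 5.11 in WT Clec4a4-, and Ccl4, a chemokine of activated leukocytes, at 9.30 against 7.89, whereas Ccl9 was at 6.01 against 7.43 and Cxcl10, an interferon-induced chemokine, at 5.61 against 7.07. Of 53 proteases, serpins and matrix genes 1 was higher and 7 were lower, with a median of -0.11. The higher one was the macrophage elastase Mmp12 (5.39 against 4.14). Besides Padi4 and Slpi the lower ones included Thbs1, thrombospondin, at 11.11 against 12.28.

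Other lists had few or no members 2-fold apart. None of 23 heat shock genes was 2-fold apart, with a median of 0.26, and none of 16 mast cell and basophil markers, 18 pancreatic markers or 16 neuron and glia markers. Of the mast cell, pancreatic and neuron lists 3, 6 and 7 members passed the filter, and the others could not count. Of 63 transcription factors 0 were higher and 1 lower, Ikzf2 (5.56 against 7.08), and of 24 cell cycle genes 0 higher and 1 lower, Tyms (7.43 against 8.95 on its brighter probe set, a difference of -0.21 on the dimmer one). Of 53 antiviral interferon genes 2 were higher, Apol7c and Gbp4, and 2 lower, Cxcl10 and Apol8, with a median of 0.00. Of 29 glycolysis and hypoxia genes 0 were higher and 2 lower (Egln3 and Tpi1), with a median of -0.28 and 22 lower by sign.

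Genes of Paneth cells, the antimicrobial cells at the crypt base, were lower in WT Clec4a4+. Of 16 measured markers 8 were 2-fold or more lower and 0 higher, the median difference was -1.13, and 16 of 16 were lower by sign. Defa38 was at 5.59 in WT Clec4a4+ and 11.04 in WT Clec4a4- (43.8-fold), Defa29 at 6.21 against 10.13 and Defa33 at 4.31 against 8.04. Alpha-defensin genes are near-identical copies, so which of them a probe set measured is uncertain. Lyz1, the Paneth cell lysozyme, was at 4.94 against 7.63. On the array labelled Ahr KO Clec4a4- Defa38 was at 5.92, Defa29 at 6.76 and Lyz1 at 5.88, nearer to WT Clec4a4+, so these genes were highest on the WT Clec4a4- array. The list's median level was 4.86 in WT Clec4a4+, 6.04 in WT Clec4a4- and 5.00 on the array labelled Ahr KO Clec4a4-.

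Some genes of gastric surface and gland cells were lower too. Of 23 measured markers 9 were 2-fold or more lower and 0 higher, with a median of -0.48. Gkn2 and Gkn1, secreted gastrokines, were at 4.45 and 5.27 in WT Clec4a4+, against 9.80 and 8.63 in WT Clec4a4-, and at 9.18 and 7.49 on the array labelled Ahr KO Clec4a4-. Ctse, a cathepsin, was at 6.90 against 8.91, Tff1, a trefoil peptide, at 6.04 against 7.52, and Muc6, a gland mucin, at 10.96 against 12.19. Tff2, another trefoil peptide, was at 13.36 against 13.39 and 13.25 on the array labelled Ahr KO Clec4a4-, with little difference between the 3 arrays. By intensity Tff2 ranked 1 of the 24111 genes on each of them. Genes of acid-secreting and enzyme-secreting stomach cells were low on both arrays, with the proton pump subunits Atp4a at 4.94 against 5.07 and Atp4b at 4.31 against 4.35, and the gastric lipase Lipf at 2.84 against 2.77.

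In the mCherry sort Gkn2 was at 3.64, 3.51, 3.87, 7.28 and 10.56 in mCherry+, against 3.72, 3.67, 3.65, 3.23 and 7.96 in mCherry-. It was high in 3 arrays, of numbers 4 and 5, and the groups overlapped (1.33, adjusted p = 0.954 and, with the block, 0.465, limma). Lyz1 was at 9.82 to 11.53 in mCherry+ and 8.50 to 11.71 in mCherry- (0.43, adjusted p = 0.973, limma). Of the Paneth and gastric lists 0 members were called in either fit, at medians of 0.19 and -0.03. The mean over the Paneth list ran from 7.04 to 8.37 in mCherry+ and from 6.46 to 8.63 in mCherry-, and that over the gastric list from 4.88 to 6.46 and from 4.72 to 6.02. The part of RNA from gland and crypt cells in the surface-sort differences of these secreted proteins was not tested.

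The genes 2-fold or more apart in the surface sort were then read in the reporter sort as a whole. Of the 155 higher genes 116 were measured there, and 92 of them (79.3%) were higher in mCherry+ by sign, against 51.0% of the 11323 genes compared in both tables. Of the 116, 14 (12.1%) were called higher and 0 lower, against 0.265% of the 11323 called higher, and 33 (28.4%) with the block, against 1.81%. Of the 241 lower genes 217 were measured, and 192 (88.5%) were lower by sign, against 49.0%. Of the 217, 29 (13.4%) were called lower and 0 higher, against 0.371%, and 61 (28.1%) with the block, against 1.23%. All of the 14 and 29 calls also passed with the block. Of these calls, 4 and 13 held with each array left out in fits without the block. With 1 array left out the first count was 4 to 7 without mCherry+ array 1, 2, 3 or 5 or mCherry- array 2, 3 or 5, 14 without mCherry- array 1 or 4 and 22 without mCherry+ array 4. The second was 14 to 18 without mCherry+ array 2, 3 or 5 or mCherry- array 2, 3 or 5 and 22 to 36 without the others. All 5 pairs had the direction of the surface sort for 46 of the 116 and 99 of the 217. Over the 11323 genes all 5 pairs were higher in mCherry+ for 8.64% and lower for 6.69%.

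Which genes were carried over differed by group. The 14 called higher were Dpep2, Cd22, Ly86, Clec4b2, Fcrls, Gpr161, Pmvk, F2rl3, Slco4a1, Msmo1, Cyp51, Cep85l, Hmgcs1 and Dok1. Of the 10 named genes with the highest surface-sort difference, 3 were called without the block (Dpep2, Cd22 and Ly86) and 1 more with it (Clec4a4). Of the 10 named genes with the lowest, 1 was called without the block (S100a8) and 1 more with it (Clec12a), while Defa38, Defa29 and Defa33 were not measured there. Tff1 and Adgrg1 were the genes lower in the surface sort and higher in mCherry+ in all 5 pairs. They were 2 of the 217 lower genes measured there, against 8.64% of the 11323 genes compared in both tables.

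**Figure D4:**
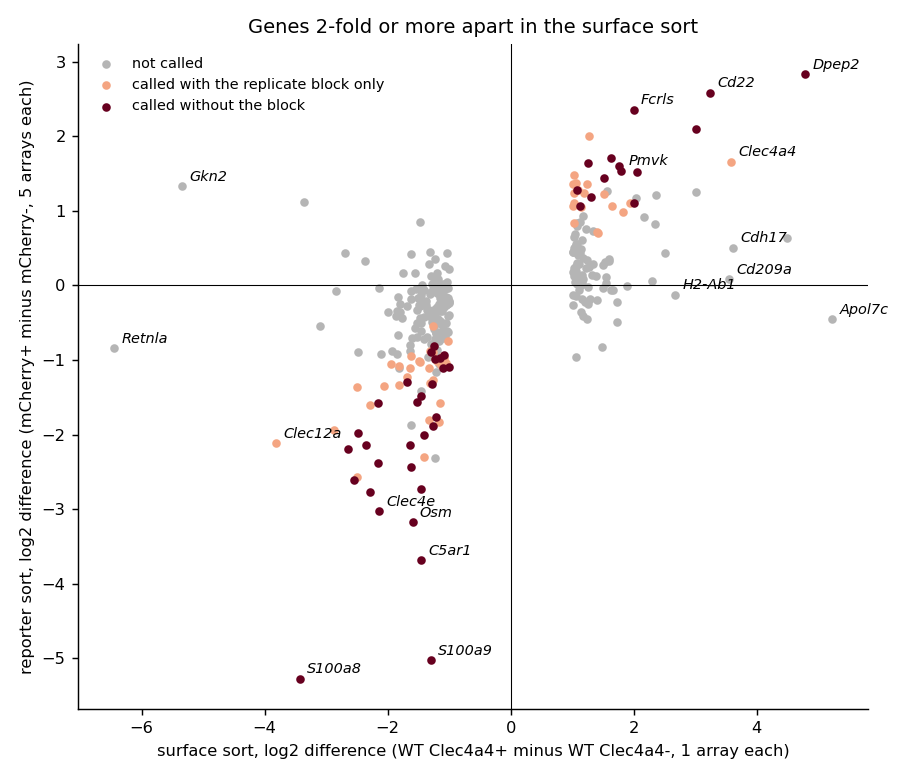
Log2 difference of genes 2-fold or more apart in the surface sort (horizontal axis, 1 array each) against their log2 difference in the reporter sort (vertical axis, mCherry+ minus mCherry-, 5 arrays each), coloured by their call. Every called gene has the same sign on both axes, whereas Apol7c, Cd209a, H2-Ab1, Gkn2 and Retnla lie near or across the horizontal line.

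**Figure D5:**
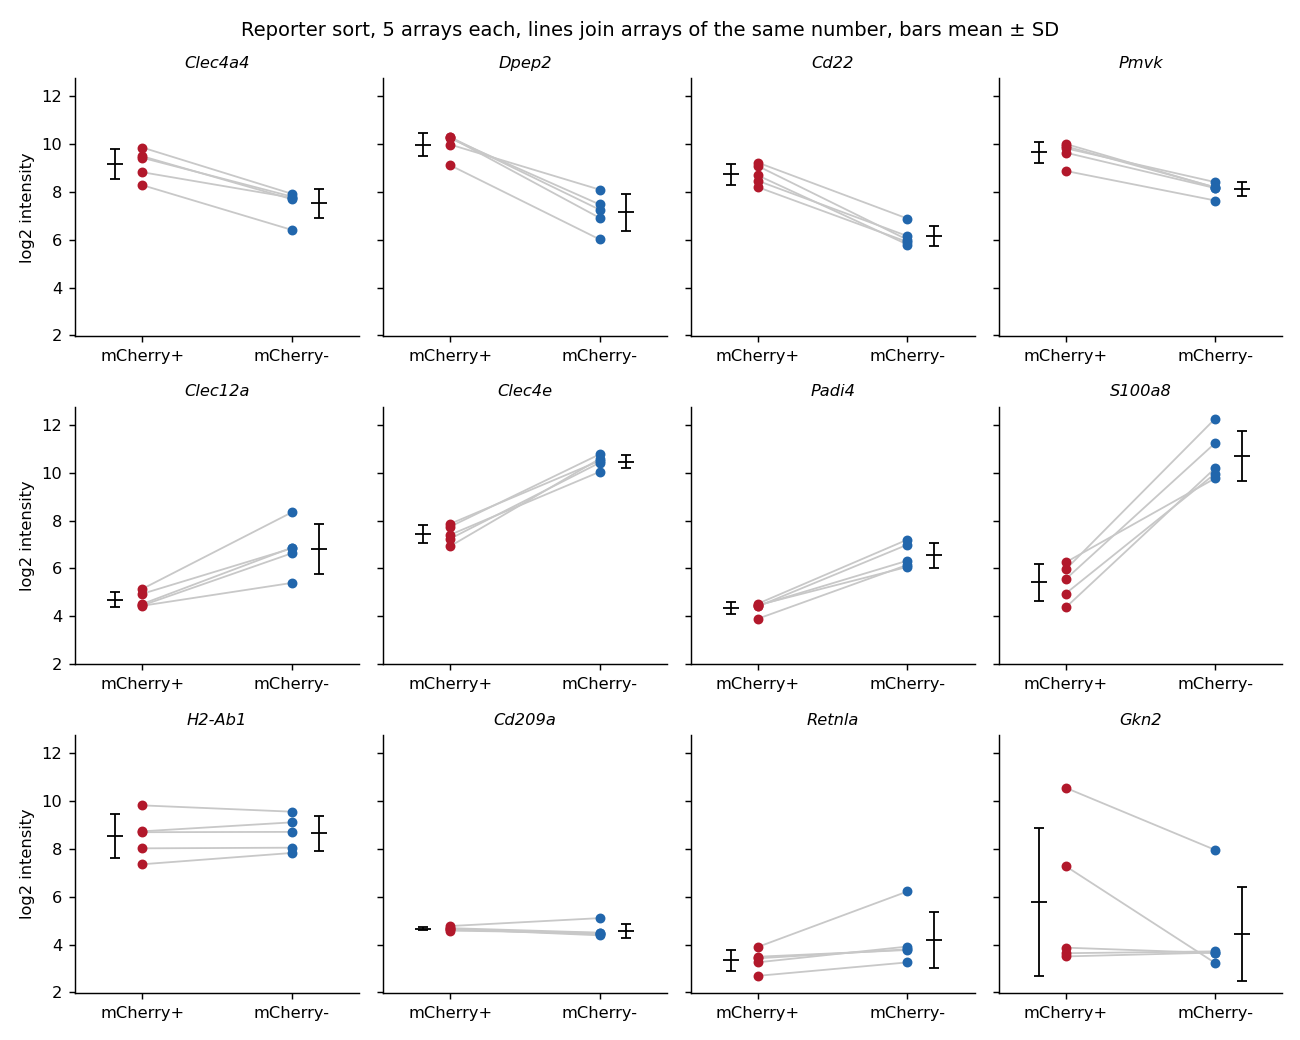
Log2 intensity of 12 genes on the 5 mCherry+ and 5 mCherry- arrays, with lines joining arrays of the same number and bars at mean ± SD. Clec4a4, Dpep2, Cd22 and Pmvk are higher in all mCherry+ arrays and Clec12a, Clec4e, Padi4 and S100a8 lower, while H2-Ab1, Cd209a, Retnla and Gkn2 overlap.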

How the data were processed

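The data were microarrays of RNA from sorted small intestinal eosinophils, amplified from small amounts of total RNA per the labels' protocols. The authors deposited log2 intensities in 2 tables, normalized separately with RMA per the submitters' processing notes (its version, the background settings and a genome build are not given in the sources used here), and no comparison crosses the tables. Array values carry no read depth, so the number of arrays limits the precision.

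The surface-sort table held 28360 probe sets, of which 3011 had no gene symbol. The probe set brightest on average stood for each of 24111 genes (955 had several), and 22974 genes matched RefSeq, which updated 1334 symbols. The surface sort was read as differences between 2 arrays without a test. The reporter table (35556 probe sets, 20527 genes) was tested with limma 3.58.1 in R 4.3.3 (lmFit, and eBayes with trend and robust fitting, Benjamini-Hochberg adjustment), which was tested on simulated data. Python 3.11.15, pandas 2.3.3 and numpy 2.4.6 were used otherwise. The replicate numbers come from the labels. Deviations of same-numbered arrays correlated at 0.158 to 0.653 in all 5 pairs, so the number was taken to pair the samples. The fit with it as a block is given where it changes the call of a gene whose reporter difference is reported. Other named genes have no reporter value here, and the fits with 1 array left out ignored the pairing.

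The genes named were 5 markers with Ahr and Cyp1b1, the 30 highest and 30 lowest differences past the filter (leaving out predicted genes, small RNAs and receptor segments), the 5 largest differences of each list, the 20 largest called in the same direction in the reporter sort and up to 10 called in the opposite one (0 were found), and 10 a side by their value on the array labelled Ahr KO. The other genes named were chosen after their values were seen, among them further members of the MHC class II, cholesterol, cytokine, NF-kB and gastric lists and those with a call in the reporter sort. The members and lists were chosen with earlier results of these data known. Alternatives were another fold limit, filter, probe set rule, quantile scaling, list medians over members past the filter, the block, and leaving out arrays. A few genes that the rule takes are not reported here.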

Additional observations from a re-analysis of the deposited data

Results flagged for a closer look

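Among 38 genes looked at in the reporter sort, 10 of 76 groups of 5 arrays held a value far from the other 4. For independent normal values about 1 in 20 groups would hold one. These genes were chosen with results known and share the same arrays, so their groups are not independent and the excess was not tested. Clec4a4 was at 6.42 in mCherry- array 4, below the other mCherry- arrays, and in mCherry+ array 4 Dpep2 was at 9.12 and Padi4 at 3.89, both below the other mCherry+ arrays. Retnla at 6.22 and Cd209a at 5.11 were above the other mCherry- arrays in mCherry- array 1, where Cdh17 was below them at 7.71. In mCherry- array 5 the gastric-type genes Gkn2 at 7.96, Gkn1 at 6.59 and Tff1 at 9.01 were above the other mCherry- arrays. Cyp51 was at 10.15 in mCherry+ array 5, above the other mCherry+ arrays.

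Tff1 and Adgrg1, an adhesion receptor, ran opposite ways in the 2 sorts. Tff1 was lower in WT Clec4a4+ by 1.48 and higher in mCherry+ by 0.85 on average, and Adgrg1 was lower by 1.01 and higher by 0.22, in 5 of 5 pairs each. The difference between the sorts was not tested.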

How the results depend on the processing

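At limits of 1.5-fold and 4-fold 593 and 23 genes were higher in WT Clec4a4+ and 762 and 32 lower. Under 8 other choices of probe set, filter, scaling and table the counts stayed at 114 to 167 higher and 199 to 252 lower. The mean of the probe sets gave Dpep2 a difference of 3.63. Over members past the filter alone, chosen after seeing the data, list medians were -0.63 for C-type lectins and -1.10 for gastric genes. In the reporter sort 32 genes were called higher and 45 lower, 218 and 155 with the replicate block, and 53 were higher with the filter at the median. Of the surface-sort genes 33 and 61 were called in the same direction with the block, against 14 and 29 without it. Without each array in turn the calls ranged over 8 to 69 higher and 20 to 61 lower, of which 4 to 22 and 14 to 36 were surface-sort genes, fewest without mCherry+ array 5. Without both arrays of number 1, chosen after seeing the data, 12 were higher and 26 lower (7 and 17 of them surface-sort genes), and 110 and 72 with the block. The cause of these shifts was not tested. In every fit run 0 surface-sort genes were called in the opposite direction. Gene names from a platform annotation were not run, since none was used here. A single array a side and values near 4.79 limit the surface-sort differences.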

Other observations

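Of 14 goblet cell markers 0 were 2-fold or more higher in WT Clec4a4+ and 1 was lower, with a median of 0.06 and 8 higher by sign. The lower one was Spdef, a factor of secretory cells, at 6.57 in WT Clec4a4+ and 7.81 in WT Clec4a4-. Outside the lists, and chosen after their values were seen, A4gnt, which caps gland mucin sugars, was at 6.50 in WT Clec4a4+ and 7.96 in WT Clec4a4-, and Cftr, a chloride channel, and Aqp5, a water channel, were lower by differences of -1.41 and -1.16.

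Antigen receptor genes differed in both directions. Of 24 immunoglobulin genes and segments 8 were 2-fold or more higher in WT Clec4a4+ and 3 lower, with a median of 0.39 and a range of -2.84 to 4.49. Igkv4-91 was at 9.71 in WT Clec4a4+ and 5.22 in WT Clec4a4-, while Ighg3 was at 4.80 and 7.64. Of 25 T cell receptor segments 2 were higher and 0 lower, with a median of 0.10. These segments share sequence, so which of them a probe set measured is uncertain.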
